A study of Homo sapiens with 6 samples.

Results

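The genes described here encode the proteins of the cytosolic ribosome. They were taken from the deposited gene table by symbol: RPL or RPS followed by a number and an optional letter A, X or L, together with RPLP0, RPLP1, RPLP2 and RPSA, with pseudogenes and RPS6K kinases left out. The rule finds 82 of the 23368 genes in the table. Of these, 43 belong to the large subunit, 31 to the small subunit and 3 to the P stalk, and 5 are variant paralogs or second copies, among them RPL3L, RPL10L, RPL39L and RPS27L.

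RNA from 1205Lu cells, an established human line from a metastatic melanoma, was sequenced in 6 libraries. The SOX10 group (3 libraries) came from cells transfected with pCMV6-SOX10, a plasmid meant to drive SOX10, a transcription factor of neural crest cells, melanocytes and Schwann cells. The control group (3 libraries) received the pCMV6 control plasmid. Each flask was given 7.8 µg of plasmid DNA by transient transfection and was harvested 24 h later, and 125 ng of total RNA entered each library. Both groups thus share the cell line, the transfection and the vector, and transfected and untransfected cells of a flask were sequenced together. The title of the series names SOX10 as a regulator in melanoma cells, and the ribosomal protein genes serve here as a large, abundant and co-regulated set of which the response can be measured closely.

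A ribosome holds a single copy of nearly all of these proteins, and dividing cells spend much of their transcription and translation on making them. Their mRNAs begin with a terminal oligopyrimidine (TOP) tract, a C at the cap followed by a run of C and U, through which the kinase mTOR, acting by way of LARP1, turns their translation on and off together. MYC raises their transcription, and several ribosomal proteins that are not built into ribosomes bind MDM2 and so stabilise p53. RNA sequencing of total RNA measures their transcripts, not their translation or the ribosomes themselves, and in bulk samples a difference in the number of cells of a kind and in the RNA per cell cannot be told apart.

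The start of the gene shows what these genes share in sequence. RefSeq start windows (GRCh38.p14) were matched by symbol for 64 of the 82 genes. A tract was counted where a C within 3 bases of the annotated start was followed by at least 4 further C or T on the sense strand. Such a tract stood at 47 of the 64 starts (73.4%), against 13.03% of all 35116 promoters in the table, and it ran from 5 to 19 bases with a median of 8. Each of the 64 genes was read in the first window listed for it. The 35116 promoters were not reduced to a single window per gene, so the units differ. The windows below hold 10 bases before the start and 20 from the start on, 5′ to 3′ on the gene's own strand, with the tract in capitals. They are shown for some of the genes whose values are given further down, so that the tract can be set beside the measurements. The first 6 belong to genes with higher fitted values in the SOX10 libraries.
RPS12 (chr6:132814559-132814588, plus strand): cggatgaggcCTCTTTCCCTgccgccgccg
RPL39 (chrX:119791611-119791640, minus strand): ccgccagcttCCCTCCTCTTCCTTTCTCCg
RPL22 (chr1:6199576-6199605, minus strand): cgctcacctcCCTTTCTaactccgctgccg
RPS16 (chr19:39435930-39435959, minus strand): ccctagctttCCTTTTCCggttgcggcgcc
RPS3 (chr11:75399508-75399537, plus strand): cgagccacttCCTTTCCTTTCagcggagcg
RPL35A (chr3:197950180-197950209, plus strand): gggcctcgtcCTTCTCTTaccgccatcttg

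The next 4 belong to the genes with the lowest fitted values among those of at least 50 CPM (counts scaled to the total of assigned reads), and they carry tracts of the same kind.
RPL18 (chr19:48619159-48619188, minus strand): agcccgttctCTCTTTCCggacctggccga
RPL28 (chr19:55385922-55385951, plus strand): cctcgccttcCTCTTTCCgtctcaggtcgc
RPL34 (chr4:108620566-108620595, plus strand): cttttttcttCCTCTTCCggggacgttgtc
RPS14 (chr5:150449720-150449749, minus strand): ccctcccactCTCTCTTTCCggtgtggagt

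In 17 of the 64 windows no tract was found at the annotated start. RPL27 and RPL4 are shown because a run of C and T lies further inside their windows, and RPS27L beside its sister gene RPS27 because the paralogs differ in this feature.
RPL27 (chr17:42998409-42998438, plus strand): gtgaaaggttagcggaagtgtccttctttc
RPL4 (chr15:66504836-66504865, minus strand): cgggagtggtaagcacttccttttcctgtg
RPS27 (chr1:153990752-153990781, plus strand): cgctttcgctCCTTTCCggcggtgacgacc
RPS27L (chr15:63157458-63157487, minus strand): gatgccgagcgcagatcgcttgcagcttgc

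In the longer promoter windows of 250 bases before and 50 after the start, searched on both strands, CCGGAAG, a core of ETS family sites, was present in 34.4% of the 64 ribosomal protein promoters and in 10.3% of all promoters. The letters ACAATG and ACAAAG, both forms of the short core bound by SOX factors, were present in 1.56% and 6.25% of them, against 10.8% and 16.1% of all promoters. TATAAA was found in 9.38% against 11.5%. CTTTC, which overlaps the tract itself, was found in 76.6% against 54.7%. These are matches of letters and do not show binding.

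Reads assigned to genes ran from 867917 to 2066520 in the control libraries and from 2544420 to 4167393 in the SOX10 libraries. Every SOX10 library was deeper than every control library, with a ratio of the mean totals of 2.71, so depth and group cannot be told apart. Per 100 assigned reads, SOX10 replicate 1 had 93.5 reads outside genes and control replicate 3 had 97.0, against 121 to 135 in the other 4 libraries. Transcripts of SOX10 measured 19.6 ± 2.63 CPM in the control group and 25.02 ± 8.45 CPM in the group labelled SOX10 (SD, n = 3 each). The ratio had a 95% interval of 0.869 to 1.87 and an edgeR quasi-likelihood adjusted p of 0.927, and the log2 fold change of 0.35 went to 0.030 without SOX10 replicate 3. The counts thus do not separate the libraries by the overexpressed gene, and every direction below is that of the libraries as labelled. Of 10 markers of the melanocyte lineage, 5 had enough reads for a test. ERBB3, S100A1 and S100B were abundant, while MLANA (4 reads), TYR (9), DCT (6), TYRP1 (4) and PMEL (19) were near 0 over all libraries. Of 16 markers of keratinocytes, leukocytes, endothelium, fibroblasts and hepatocytes, PDGFRB (150 reads over all libraries) and VWF (57) had enough reads for a test. CD3E and LUM were at 0. The summed level of the 16 was 18.5 to 25.5 CPM in the SOX10 libraries and 17.7 to 29.3 CPM in the controls.

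No ribosomal protein gene was called different between the groups. Of the 82 genes, 76 had enough reads for a test, and 0 of them had an adjusted p under 0.05 by edgeR's quasi-likelihood test, in either direction, with a smallest adjusted p of 0.474. Over all 10678 genes tested, 0.112% were called, 0.00937% as higher and 0.103% as lower in the SOX10 libraries. At an unadjusted p under 0.05, 6 ribosomal protein genes (7.89%) were higher and 0 were lower, against 2.71% higher and 3.52% lower of all genes tested (6.23% in either direction). DESeq2 and limma-voom also called 0 of them. At an unadjusted p under 0.05 they had 1 and 5 higher and 0 lower, where 0.691% and 2.30% of all genes were higher. Without SOX10 replicate 1 the edgeR count at an unadjusted p went from 6 to 2, while the share of all genes that were higher was 3.31%.

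The fitted differences were small and mostly of 1 sign. The median log2 fold change of the 76 genes was 0.11, a ratio of 1.08, and the middle of their distribution, from the lower to the upper quartile, ran from 0.063 to 0.16. The median over all genes tested was 0.0076. Fitted values were above 0 for 67 of the 76 genes (88.2%), against 51.3% of all genes tested. The 9 values below 0 were those of RPL10, RPL10A, RPL13A, RPL17, RPL18, RPL28, RPL34, RPS14 and RPS28. With all libraries thinned to the total of the smallest, 89.3% of the tested genes were above 0, and the medians of the large and small subunit genes were 0.084 and 0.12. Without SOX10 replicate 1 and control replicate 3, the libraries with the fewest reads outside genes, 80% were above 0, and these medians were 0.084 and 0.11. These counts describe the set; the genes share their libraries and their regulation and are not independent of each other.

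The values of these abundant genes were measured closely. Standard errors of the log2 fold changes had a median of 0.11 in the ribosomal protein genes, against 0.23 in all genes tested. For 71 of the 76 genes (93.4%) the whole 95% interval lay within a 1.5-fold difference in either direction, against 43.4% of all genes tested. The other 5 were RPL13A, RPL17, RPL35A, RPL39 and RPL39L, and only RPL13A and RPL39L had intervals that went beyond 2-fold. Between replicates of a group, the median coefficient of variation of the CPM was 6.88% in the SOX10 libraries and 7.04% in the controls. In 1136 other genes of between 131 and 396 CPM, the range that holds the middle of the ribosomal protein genes, it was 7.85% and 9.13%.

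**Figure D1:**
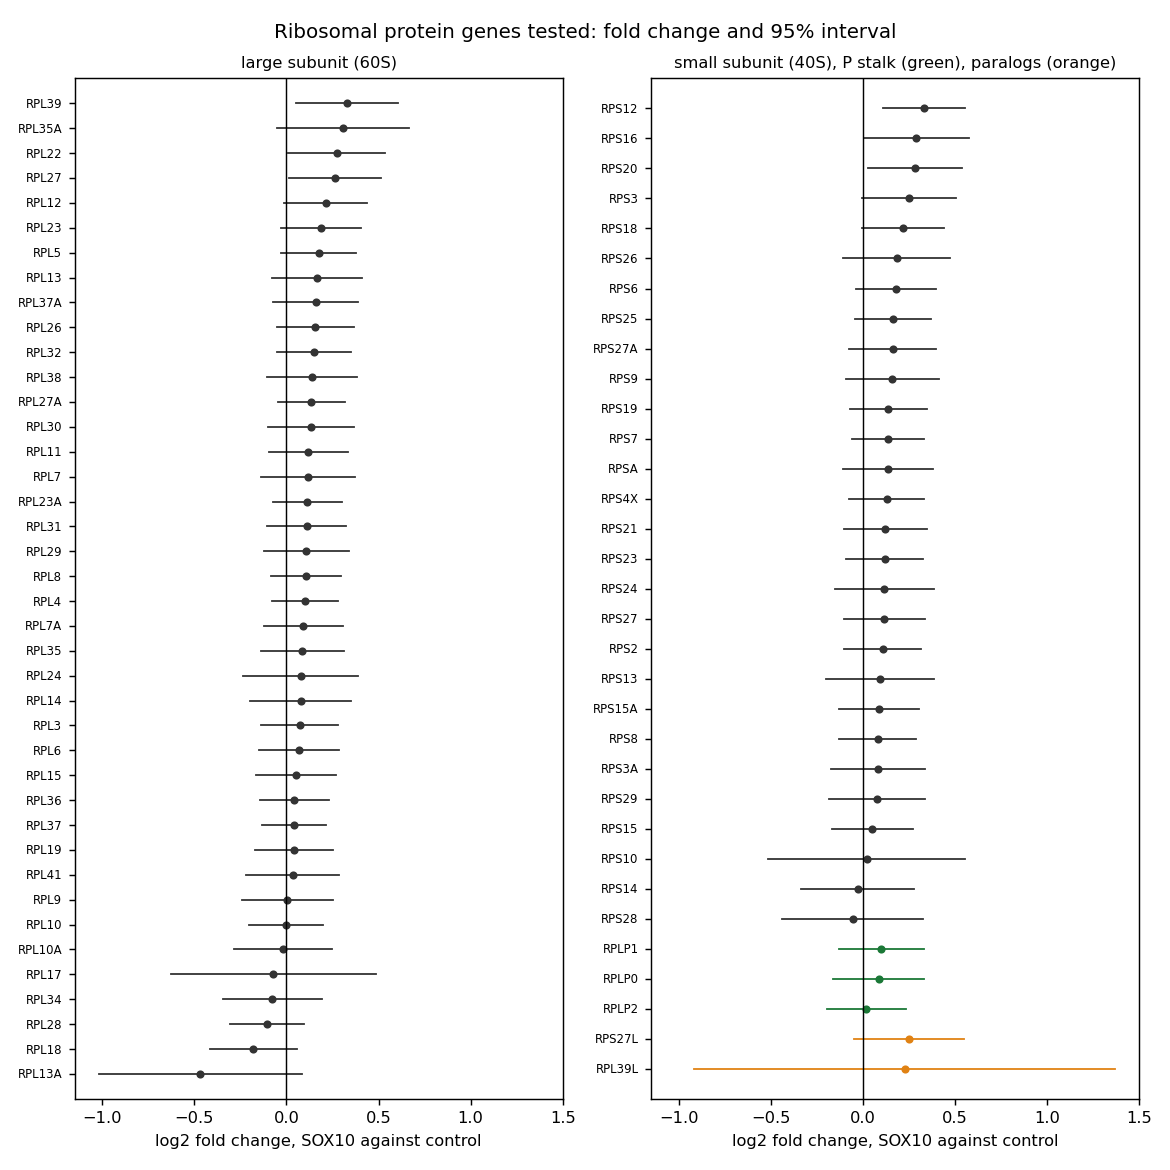
Log2 fold change (SOX10 against control, x axis) of 73 of the 76 tested ribosomal protein genes with 95% intervals, ordered by value within the large subunit (left) and within the small subunit, the P stalk and the variant paralogs (right). Of the 73 points, 64 lie between 0 and 0.33, and the widest interval is that of RPL39L, followed by RPL17 and RPL13A.

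As a share of all assigned reads, the 82 genes together held 2.68% in SOX10 replicate 1 (exact Clopper-Pearson 95% interval 2.66% to 2.69%), 2.503% in replicate 2 (2.48% to 2.52%) and 2.68% in replicate 3 (2.67% to 2.70%). In the controls they held 2.43% (2.40% to 2.46%), 2.45% (2.42% to 2.48%) and 2.43% (2.41% to 2.45%). These intervals cover counting error only. The 3 SOX10 values lay above the 3 control values, but SOX10 replicate 2 was closer to the controls than to the other SOX10 libraries. The means were 2.62% ± 0.103 and 2.44% ± 0.0111 (SD, n = 3 each), a ratio of 1.08.

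The large subunit genes held 1.55% ± 0.0524 of the reads in the SOX10 group and 1.45% ± 0.0121 in the controls (SD, n = 3 each). For the small subunit the shares were 0.986% ± 0.0472 and 0.906% ± 0.0205. The ratio of large to small subunit reads was 1.57 ± 0.0237 and 1.601 ± 0.0491, with overlapping groups, so the balance of the subunits differed by less than the spread between replicates. With reads outside genes added to the denominator, the share of the 82 genes was 1.38%, 1.13% and 1.21% in the SOX10 libraries against 1.08%, 1.04% and 1.23% in the controls. On that scale the groups overlapped, with control replicate 3 above SOX10 replicates 2 and 3.

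**Figure D2:**
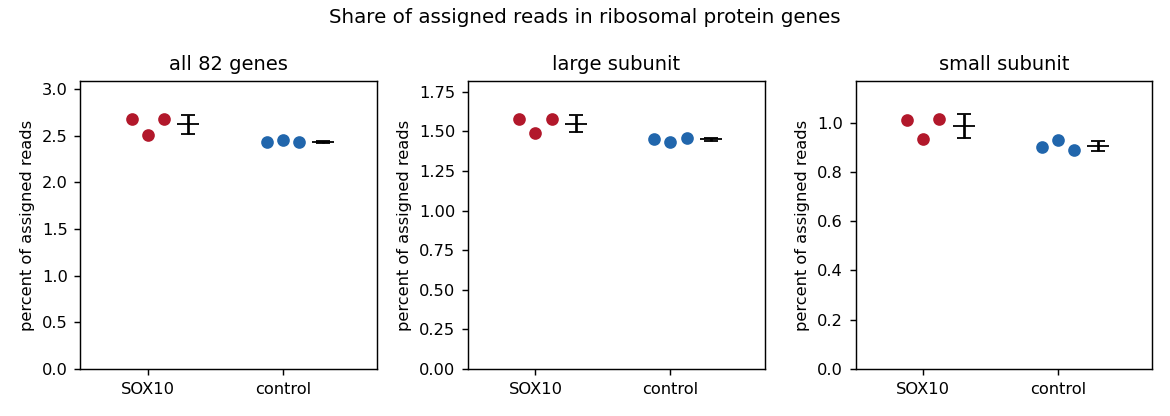
Percent of assigned reads that fell in all 82 ribosomal protein genes, in the large subunit and in the small subunit (y axes from 0) for each library of the 2 groups, with the mean and SD of each group beside the points. SOX10 replicate 2 lies just above the controls (2.503% of reads in all 82 genes) and below the other SOX10 libraries (2.68% each).

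The libraries contributed unequally. The median deviation of the 76 genes from their own mean over the 6 libraries, on the log2(CPM + 0.5) scale, was 0.071 in SOX10 replicate 1, -0.0019 in replicate 2 and 0.087 in replicate 3. In the controls it was -0.048, -0.051 and -0.057. SOX10 replicates 1 and 3 had 60 and 65 of the 76 genes above their own mean and SOX10 replicate 2 had 38, against 27, 19 and 26 in the controls. Reads outside genes per 100 assigned reads were 93.5, 121 and 122 in SOX10 replicates 1 to 3, and 125, 135 and 97.0 in the controls. Their part in these deviations was not tested.

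**Figure D3:**
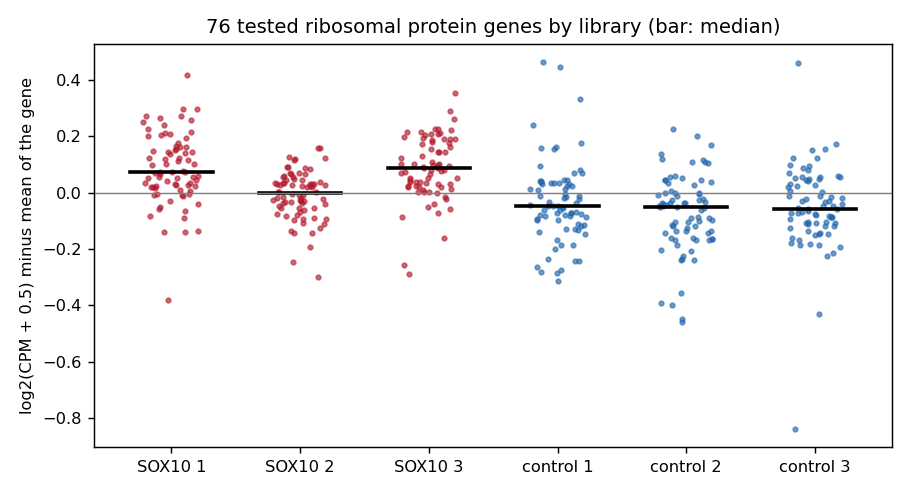
Deviation of each of the 76 tested genes from its own mean over the 6 libraries (y axis, log2(CPM + 0.5)), by library, with a bar at the median. SOX10 replicates 1 and 3 sit above 0, SOX10 replicate 2 sits at 0, and the 3 controls sit below 0.

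Among the 30 tested small subunit genes, 28 had fitted values above 0, and the median log2 fold change was 0.12. In 8 of them (26.7%) all SOX10 libraries lay above all controls, against 5.72% of all genes tested. In 0 the order was the reverse, against 6.03%. RPS12, a protein of the beak of the small subunit, stood at 258, 264 and 277 CPM in the SOX10 libraries and at 196, 211 and 226 CPM in the controls. Its groups did not overlap. Its log2 fold change was 0.33 (SE 0.11), a ratio of 1.26 with a 95% interval of 1.08 to 1.47, and the adjusted p by edgeR's quasi-likelihood test was 0.474, the smallest of the set. RPS20, a protein of the head of the subunit, stood at 134, 126 and 140 CPM against 101, 113 and 115 CPM, again without overlap. The fitted log2 fold change was 0.28 (SE 0.12), with an edgeR adjusted p of 0.762.

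RPS16, of which the tail reaches the tRNA in the decoding centre, stood at 134, 116 and 117 CPM in the SOX10 libraries and at 106, 79.6 and 111 CPM in the controls. The lowest SOX10 value lay only just above the highest control value. The fitted log2 fold change was 0.29 (SE 0.14), with an edgeR adjusted p of 0.794, and it was 0.17 without control replicate 2. RPS3, which lines the mRNA entry channel and is one of the MDM2-binding proteins, stood at 144, 134 and 146 CPM against 106, 133 and 118 CPM. Control replicate 2 lay only just below SOX10 replicate 2, and the log2 fold change was 0.25 (SE 0.12). RPS14, a protein of the platform, stood at 75.8, 65.8 and 67.3 CPM against 65.2, 68.1 and 77.5 CPM, with full overlap of the groups and a log2 fold change of -0.030 (SE 0.15). The sign of the RPS14 value turned without SOX10 replicate 2, without the filter on low counts and without control replicate 3, where it was 0.068.

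Among the 41 tested large subunit genes, 34 had fitted values above 0, and the median log2 fold change was 0.10. In 9 of them (22%) all SOX10 libraries lay above all controls, against 5.72% of all genes tested. In 2 (4.88%) the order was the reverse, against 6.03%. RPL39, a small basic protein of the wall of the peptide exit tunnel, stood at 108, 96.9 and 95.7 CPM in the SOX10 libraries and at 80.7, 79.6 and 79.5 CPM in the controls. The controls were nearly equal, and every SOX10 library lay above them. The log2 fold change was 0.33 (SE 0.13), with an edgeR adjusted p of 0.689. Every 50-base stretch of the RPL39 coding sequence also occurs in a distant gene, so its reads may have been assigned in part.

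RPL27, a large subunit protein, stood at 146, 139 and 148 CPM against 114, 112 and 131 CPM, without overlap, and its log2 fold change was 0.27 (SE 0.12, edgeR adjusted p 0.766). RPL22, which has a close paralog in RPL22L1, stood at 179, 164 and 194 CPM against 171, 123 and 151 CPM. Here SOX10 replicate 2 lay below control replicate 1, and the log2 fold change was 0.27 (SE 0.13, edgeR adjusted p 0.771), or 0.17 without control replicate 2. RPL35A, mutated in some families with Diamond-Blackfan anaemia, stood at 87.8, 67.8 and 64.9 CPM against 74.1, 49.6 and 56.1 CPM. Its groups overlapped, and its log2 fold change of 0.31 (SE 0.17) went to 0.16 without SOX10 replicate 1.

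Both genes with the reverse order were large subunit genes. RPL18 stood at 154, 148 and 159 CPM in the SOX10 libraries and at 160, 183 and 177 CPM in the controls, a log2 fold change of -0.18 (SE 0.11), and SOX10 replicate 3 lay only just below control replicate 1. RPL28 stood at 358, 363 and 353 CPM against 383, 378 and 394 CPM, a log2 fold change of -0.11 (SE 0.10) with a 95% interval of the ratio from 0.808 to 1.07, and it was -0.050 when the libraries were thinned to equal depth. For RPL28 the groups did not overlap, but the gap between them was small and the edgeR adjusted p was 0.932. RPL34 stood at 103, 102 and 89.9 CPM against 97.3, 108 and 104 CPM, with overlapping groups and a log2 fold change of -0.078 (SE 0.13). That value was -0.015 without SOX10 replicate 3, and it was also nearer 0 without control replicate 2. The lowest fitted value of the set was that of RPL13A (-0.47, SE 0.27), a gene outside the rule for named genes and named here after its value was seen. It rested on 265 reads over all libraries, its groups overlapped, and its 95% interval of the ratio ran from 0.494 to 1.06.

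RPL37, a large subunit protein with a zinc finger, was the most abundant gene of the set, at 1767, 1838 and 1829 CPM in the SOX10 libraries against 1797, 1642 and 1838 CPM in the controls. The groups overlapped, and the log2 fold change was 0.042 (SE 0.08), with a 95% interval of the ratio from 0.911 to 1.16. Its sign turned without control replicate 2 and with an offset for coding length and GC content, to values near 0. RPL8, which lies beside the peptidyl transferase centre, stood at 1334, 1319 and 1484 CPM against 1316, 1371 and 1167 CPM, and its log2 fold change was 0.10 (SE 0.09). The latter was 0.040 without control replicate 3 and also smaller without SOX10 replicate 3. RPL4, which narrows the exit tunnel, stood at 1265, 1185 and 1293 CPM against 1154, 1202 and 1143 CPM, and its log2 fold change was 0.098 (SE 0.09). In both, control replicate 2 lay above SOX10 replicate 2. RPL27A stood at 1186, 1146 and 1205 CPM against 1120, 999 and 1101 CPM, without overlap, a log2 fold change of 0.13 (SE 0.09), or 0.089 without control replicate 2.

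Counted over the set, 17 of the 76 tested genes (22.4%) had all 3 SOX10 values above all 3 control values, against 5.72% of all genes tested, and 2 (2.63%) had all below, against 6.03%. Among the 17 were RPL5, RPL12, RPL23A, RPL26, RPL27, RPL27A, RPL32, RPL39, RPS3, RPS4X, RPS6, RPS7, RPS12, RPS16 and RPS20, and those outside the rule for named genes are listed without values. The count depends on single libraries: leaving out SOX10 replicate 2 gave 31, control replicate 1 gave 29 and control replicate 2 gave 27, where the share over all genes tested was also larger, at 10.1% or more. After an offset for coding length and GC content it was 9, against 5.71% of all genes tested under that offset.

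The P stalk, made of RPLP0 and dimers of RPLP1 and RPLP2, recruits the elongation factors to the ribosome. RPLP1 stood at 251, 251 and 265 CPM in the SOX10 libraries and at 208, 241 and 263 CPM in the controls. The groups overlapped through control replicate 3, and the log2 fold change was 0.098 (SE 0.11). It went to 0.016 with control replicate 1 left out and to 0.19 with control replicate 3 left out. All 3 stalk genes had fitted values above 0, between 0.017 and 0.098, and none had groups apart.

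Of the 9 MDM2-binding ribosomal proteins on the list used here, 8 had fitted values above 0, with a median log2 fold change of 0.16. In 4 (44.4%) all SOX10 libraries lay above all controls, against 5.72% of all genes tested. None (0) were called or reached an unadjusted p under 0.05. Of 12 genes mutated in Diamond-Blackfan anaemia, 11 were tested and all 11 had fitted values above 0, with a median of 0.13. In 3 (27.3%) all SOX10 libraries lay above all controls, against the same 5.72%, with 0 called and 0 at an unadjusted p under 0.05. The lists share members with each other and with the subunits. By start sequence, the 45 tested genes with a tract had a median of 0.12 and the 16 tested genes without one a median of 0.087. Of the 82 genes, 28 hold at least 1 small nucleolar RNA (snoRNA) gene in their span in the GENCODE 29 annotation, 60 in all, and the 27 of these that were tested had a median of 0.11, as did the 49 tested genes that hold none.

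The variant paralogs were few in reads except RPS27L. This paralog of RPS27 is induced by p53. It stood at 129, 138 and 148 CPM in the SOX10 libraries and at 150, 113 and 94.1 CPM in the controls, with overlapping groups. On the log2 scale the fitted difference was 0.25 (SE 0.14, edgeR adjusted p 0.882), and leaving out a control moved it, to 0.073 for replicate 3 and to 0.44 for replicate 1. RPL39L, a paralog of RPL39 known from testis and from some tumours, had 57 reads in all and stood at 4.02, 3.19 and 5.09 CPM against 5.53, 4.61 and 1.95 CPM. Its log2 fold change of 0.23 (SE 0.55) turned to -0.28 without control replicate 3. RPL10L, a testis form of RPL10, and RPL3L, a muscle form of RPL3, had 2 reads each over all libraries, which is under the 3 reads that a count of 0 allows.

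Levels within the set ranged widely, and were compared per kilobase of coding sequence. RPL37 was highest at 6135 CPM per coding kb over all libraries, and RPL36 stood at 3139, RPL27A at 2536 and RPL41 at 1923. In the controls RPL37 stood at 6045 ± 354 CPM per coding kb, RPL36 at 3090 ± 250, RPL27A at 2417 ± 147 and RPL41 at 1898 ± 208 (SD, n = 3 each). RPL37 stood above RPL36, and RPL36 above RPL27A and RPL41, by more than this spread between libraries. The spread does not cover differences between genes in the sequence that reads can be assigned to. Of the coding 50-base stretches of RPL37, RPL36, RPL27A and RPL41, 12.8%, 2.26%, 60.8% and 100% also occur in a distant gene. The order of their transcript levels was not tested. RPL41 encodes the shortest protein of the ribosome, and a length of 75 coding bases makes its value per kilobase a rough one. The median over the large subunit was 515 and over the small subunit 552 CPM per coding kb.

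For many of these genes the read level cannot be taken at face value, because processed pseudogenes and paralogs repeat their sequence. Reads that mapped to more than 1 place made up 17.7% to 19.1% of all records of a library and were assigned to no gene. In GENCODE 29, 18 ribosomal protein genes shared under 10% of their coding 50-base stretches with a distant gene, 26 shared 10% to 50%, 24 shared 50% to 90% and 13 shared over 90%. The median levels of these 4 classes over all libraries were 763, 508, 549 and 202 CPM per coding kb. Across the 81 genes with a coding length, Spearman's rho of level against shared percentage was -0.15, a description over genes that share their libraries. The annotation behind the deposited counts is not given, so the shared percentage applies to the reference used here. The median log2 fold changes of the tested genes of the classes were 0.13, 0.11, 0.11 and 0.078.

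**Figure D4:**
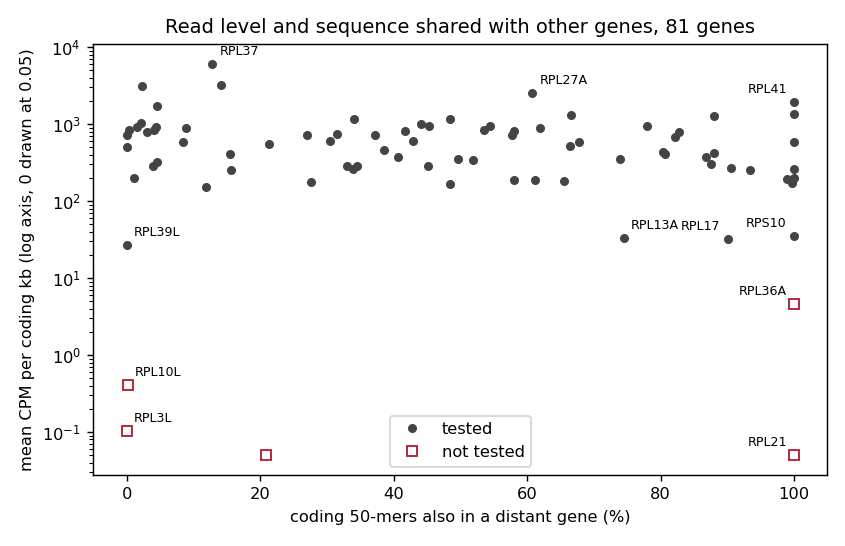
Mean level over the 6 libraries (y axis, CPM per coding kilobase, log axis, 0 drawn at 0.05) against the percent of coding 50-base stretches that also occur in a distant gene (x axis) for 81 ribosomal protein genes. Genes with no test are open squares. Low genes are found at both ends, RPL10L and RPL3L with no or hardly any shared sequence and RPL21 and RPL36A with all of it shared. Others lie between the ends: the lowest level among genes sharing 10% to 50% was 0, and RPL13A (74.5% shared) stood at 32.8.

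Among the 6 genes without a test, RPL10L and RPL3L share hardly any sequence and had 2 reads each. RPL21 had 0 reads, and all of its coding 50-base stretches occur in distant genes. The annotation holds 66 pseudogenes named after it, and 61 distant genes share at least 1 of its stretches. RPL36A, shared to the same extent, had 13, 2 and 7 reads in the deeper SOX10 libraries against 2, 0 and 1 in the controls. In CPM its values were 3.48, 0.798 and 1.696 in the SOX10 libraries against 2.21, 0 and 0.488 in the controls, with overlapping groups. RPL17, RPS10 and RPL13A were tested but low, at 32.2, 35.3 and 32.8 CPM per coding kb, with 90.1%, 100% and 74.5% of their coding stretches shared. These 3 were singled out after their values were seen. Shared sequence did not always go with a low level: RPS27 and RPL41, both 100% shared, stood at 1375 and 1923 CPM per coding kb, and RPL39L, with no shared stretch, at 26.6. For genes with shared sequence a count of 0 or a low count does not show a low transcript level.

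The coding length of the members was short, from 75 to 1281 bases with a median of 455 in those tested, and short genes of other kinds leaned the same way. Among tested genes that encode no cytosolic ribosomal protein, the median log2 fold change was 0.049 for 682 genes with up to 500 coding bases, 0.035 for 1997 with more than that and up to 1000, 0.00039 for 3649 with more than 1000 and up to 2000 and -0.0090 for 3223 above 2000. In the first 2 classes the ribosomal protein genes had medians of 0.12 (46 genes, 42 above 0) and 0.089 (28 genes, 23 above 0). With an offset for coding length and GC content, chosen after seeing the data, the median over the set went from 0.11 to 0.068, and 1 gene in place of 6 had an unadjusted p under 0.05. The part of length in the difference was otherwise not tested.

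The wider machinery of translation gave list medians on both sides of 0. Lists of its genes were read in the same edgeR fit, and 0 genes of any of them were called. Among all genes tested, 2.71% were higher and 3.52% lower at an unadjusted p under 0.05, and 51.3% had fitted values above 0. The list counts here and below are to be set beside these shares. Of 20 further genes of translation with TOP mRNAs, all tested, 19 had fitted values above 0, with a median log2 fold change of 0.089. Together they held 1.596% ± 0.0654 of assigned reads in the SOX10 group and 1.48% ± 0.0602 in the controls (SD, n = 3 each). These means differed by less than the sum of the group SDs. The lowest SOX10 value (1.5493%, replicate 1) lay only just above the highest control value (1.5489%, replicate 2). EIF3F, a subunit of the initiation factor that assembles on the small subunit, stood at 24.1, 23.1 and 24.5 CPM against 13.3, 13.8 and 19.0 CPM, without overlap. Its log2 fold change was 0.57 (SE 0.25), with an edgeR adjusted p of 0.752. EIF3L, of the same factor, stood at 95.1, 92.1 and 120 CPM against 78.5, 89.97 and 86.3 CPM, a log2 fold change of 0.27 (SE 0.14) that went to 0.14 without SOX10 replicate 3.

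In the same list are FAU, which encodes a ribosomal protein fused to a ubiquitin-like protein and so falls outside the symbol rule, and GNB2L1, the scaffold RACK1 on the small subunit. For FAU the fitted log2 difference was 0.19 (SE 0.16), for GNB2L1 0.056 (SE 0.09). Both lay within the range of the ribosomal protein genes.

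Initiation and release factors outside the TOP list (34 of 36 tested) had a median of -0.023, with 16 above 0, 1 higher and 2 lower at an unadjusted p under 0.05. EIF4G3, a scaffold of cap-dependent initiation, stood at 85.2, 92.1 and 89.4 CPM against 61.9, 63.4 and 65.8 CPM. The groups were far apart for their spread, with a log2 fold change of 0.47 (SE 0.14), but the edgeR adjusted p was 0.354. EIF1, which guards the choice of the start codon, stood at 196, 183 and 183 CPM against 229, 232 and 219 CPM, a log2 fold change of -0.27 (SE 0.11, edgeR adjusted p 0.689).

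Factors that build ribosomes had fitted values evenly on both sides of 0. Of 74 ribosome biogenesis genes, 72 were tested, 37 had fitted values above 0, and the median was 0.0013, with 1 higher and 0 lower at an unadjusted p under 0.05. NOP10, a component of the H/ACA particles that modify ribosomal RNA, stood at 33.7, 35.5 and 41.9 CPM against 22.1, 14.99 and 31.2 CPM, a log2 fold change of 0.61 (SE 0.23, edgeR adjusted p 0.655). Leaving out control replicate 2 gave 0.42 for NOP10, and leaving out control replicate 3 gave 0.997. WDR75, of the small subunit processome, stood at 123, 110 and 121 CPM against 134, 141 and 135 CPM, a log2 fold change of -0.20 (SE 0.12).

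RNA polymerase I and its factors, which transcribe ribosomal RNA (19 of 20 tested), had a median of -0.064, with 6 above 0, and 0 higher and 1 lower at an unadjusted p under 0.05. TAF1D, of the promoter selectivity factor, stood at 83.6, 80.6 and 98.8 CPM against 130, 118 and 103 CPM, a log2 fold change of -0.40 (SE 0.14, edgeR adjusted p 0.526). POLR1E, a polymerase I subunit, stood at 28.7, 29.1 and 34.6 CPM against 54.2, 40.4 and 33.2 CPM, with overlapping groups and a log2 fold change of -0.42 (SE 0.21) that ran from -0.22 without control replicate 1 to -0.61 without control replicate 3.

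Of the regulators, the mTOR and MYC list (17 of 19 tested) had a median of -0.076, with 5 above 0, and 0 higher and 1 lower at an unadjusted p under 0.05. MYC stood at 92.1, 92.9 and 102 CPM in the SOX10 libraries and at 145, 133 and 106 CPM in the controls. Control replicate 3 lay close to the SOX10 libraries, and the log2 fold change was -0.39 (SE 0.14, edgeR adjusted p 0.526). LARP4B, an RNA-binding protein of the La-related family, stood at 40.7, 39.1 and 41.2 CPM against 52.0, 43.8 and 55.6 CPM, a log2 fold change of -0.34 (SE 0.18).

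Genes kept for the snoRNAs in their introns (11 tested of 15 in the table) had a median of -0.21, with 3 above 0, and 0 higher and 1 lower at an unadjusted p under 0.05. SNHG15 stood at 30.8, 29.1 and 25.2 CPM against 45.3, 42.7 and 39.5 CPM, without overlap, a log2 fold change of -0.57 (SE 0.20, edgeR adjusted p 0.526) that was -0.33 when thinned. SNHG7 stood at 6.69, 12.8 and 11.1 CPM against 17.7, 16.1 and 13.2 CPM, a log2 fold change of -0.60 (SE 0.34) that went to -0.36 without SOX10 replicate 1 and to -0.30 when thinned. Many transcripts of this kind also begin with a TOP tract.

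The proteins of the mitochondrial ribosome (74 of 76 tested) had a median of 0.12, close to that of the cytosolic set, but with 54 (73.0%) above 0 and a wider spread at their lower level, and 1 higher and 0 lower at an unadjusted p under 0.05. MRPL17 stood at 73.1, 51.5 and 62.01 CPM against 45.3, 54.2 and 44.4 CPM, a log2 fold change of 0.40 (SE 0.18). MRPL51 had a log2 fold change of 0.43 (SE 0.22), which went to 0.20 with control replicate 3 left out and to 0.65 with control replicate 2 left out, and that of MRPL17 was 0.21 when thinned to equal depth. Both had overlapping groups. As a share of assigned reads these genes held 0.250% ± 0.0105 and 0.239% ± 0.0134 (SD, n = 3 each), which differed by less than the sum of the group SDs. Of 28 annotated pseudogenes of cytosolic ribosomal proteins in the table, 6 had enough reads for a test, with a median of -0.049, 3 above 0 and 0 at an unadjusted p under 0.05.

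**Figure D5:**
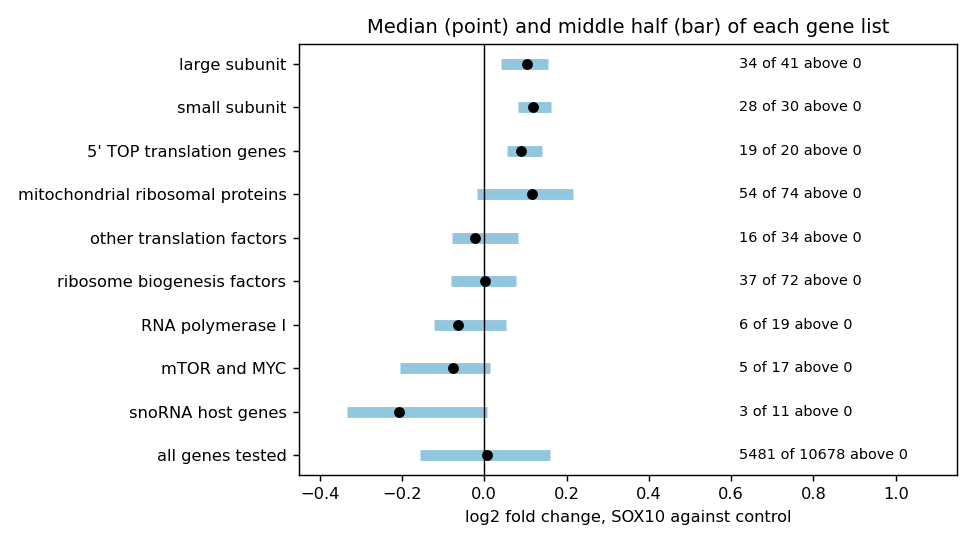
Median (point) and range from lower to upper quartile (bar) of the log2 fold changes, SOX10 against control (x axis), of each gene list, with the number of tested genes above 0. The large and small subunit, the TOP translation genes and the mitochondrial ribosomal proteins have medians between 0.089 and 0.12, and the other lists have medians between -0.21 and 0.0013.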

How the data were processed

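The authors deposited 1 table of raw read counts (whole numbers, 1 row per gene symbol and 1 column per library). The build was hg19 and the tools TopHat 1.4.0, HTSeq and DESeq, per the submitters' processing notes. Reads of overlapping or antisense genes cannot be told apart, since no strand setting, overlap mode or annotation is given in the sources used here. The table's 5 class rows that name no gene were left out of totals and tests. They held reads outside genes (39.4% to 46.9% of records), multiply mapped reads (17.7% to 19.1%) and reads ambiguous between genes (0.435% to 0.551%). No other column of per-sample values was present.

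Columns were matched to samples by title and groups taken from the treatment label. The labels do not say that the 3 libraries of a group came from separate cultures, so p-values measure only the spread between these libraries. Replicates were compared pairwise by chi-square over genes and none agreed within sampling noise (1.98 to 6.499 per degree of freedom). The test was edgeR 4.0.16's quasi-likelihood test in R 4.3.3 on the 6 libraries without covariates, two-sided, after filterByExpr (at least 10 reads, total of at least 15) and TMM scaling. Benjamini-Hochberg adjustment ran over 10678 genes, and an adjusted p under 0.05 counted as a call. Fold changes (SOX10 over control, log2) were fitted with a prior count of 0.125, their standard errors follow from the F statistic, and TMM factors also enter the CPM. The biological coefficient of variation common to all genes was 12.7%. A single read stood for 0.24 to 1.15 CPM. The limit that a count of 0 allows, 3 reads, was 0.72 to 3.46 CPM. The test was checked on simulated counts.

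Coding lengths and shared 50-base stretches came from GENCODE 29 and start sequences from RefSeq (GRCh38.p14), neither of them the authors' build. Coding length was known for 90.1% of the other tested genes. Members and lists were chosen with earlier results of these data known. Named genes are the members with the smallest unadjusted p (under 0.05), the largest and smallest fold changes at 50 CPM or more, the highest CPM, the highest and lowest levels per coding length, the smallest p in each role list, the variant paralogs, every member with too few reads, SOX10, and the 2 genes of smallest p in each other list. Some members and list genes are not reported here by name. Alternatives were other scalings, filters and tests (DESeq2 1.42.0, limma-voom 3.58.1), a replicate block, each library left out, thinning to equal depth and a covariate for reads outside genes. Added after seeing the data were an offset for coding length and GC content, leaving out SOX10 replicate 1 with control replicate 3, and another denominator for the shares.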

Additional observations from a re-analysis of the deposited data

How the results depend on the processing

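Under all alternatives run, 0 ribosomal protein genes were called in either direction (the smallest adjusted p of the set was 0.173 with the covariate for reads outside genes and 0.99998 with DESeq2), and 0 genes of each other list. The count above 0 stayed between 62 and 70 with each library left out. The count at an unadjusted p under 0.05 (6 higher) was 12 without the low-count filter, 13 with the covariate, 1 with DESeq2, 1 with the offset for coding length and GC content, 2 without SOX10 replicate 1 and control replicate 3, and 2 to 7 with each library left out, where 0 to 1 gene was lower. The share of all genes that were higher in these settings, 2.71% in the reported test, was 2.74%, 3.87%, 0.691%, 2.84% and 3.08%, and 2.25% to 3.31% with each library left out. The count with all SOX10 libraries higher (17) was 9 with the offset, 26 without that pair of libraries and 18 to 31 with each library left out. The share of all genes tested with this order, 5.72% in the reported test, was 5.71%, 18.3% and 9.63% to 12.7% in these settings. The count with all lower (2) was 1 with library totals, with the upper quartile, without the filter, when thinned and with the offset, and 2 to 4 with each library left out. Over all genes tested that share, 6.03% in the reported test, was 5.88%, 4.79%, 3.59%, 5.90% and 6.09%, and 9.85% to 12.5% with each library left out. The median log2 fold change (0.11) was 0.068 with the offset and 0.085 to 0.14 with each library left out. The ratio of the shares (1.08) was 1.11 with reads outside genes in the denominator, where the groups overlapped. Fewer libraries make it easier for groups not to overlap; the cause of the other moves was not tested. Signs turned for these: the log2 fold change of RPS14 (0.00056 without the filter, -0.098 to 0.068 with each library left out, 0.0092 without SOX10 replicate 2), of RPL36 (-0.020 thinned, -0.019 without control replicate 2, 0.083 at most with a library left out), of RPL37 (-0.020 with the offset, -0.0033 without control replicate 2, 0.077 at most), of RPL41 (-0.084 with the offset, -0.019 without SOX10 replicate 1, -0.041 without control replicate 2, 0.091 at most) and of RPL39L (-0.28 without control replicate 3, 0.54 without control replicate 1). The offset gave no value for the pseudogene and SNHG genes, which have no coding length. Same-numbered libraries did not deviate together (r -0.030, -0.033 and -0.14 over all genes). With the replicate block 0 ribosomal protein genes were called, 4 had an unadjusted p under 0.05, and 7 genes in place of 12 were called over the whole table (6 to 52 over all alternatives). Depth limits RPL39L and the genes under 100 reads most.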
